A study of Mus musculus with 31 samples.

Results

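A set of 10 transcription factor genes that pattern the mesenchyme of the gut, stomach, spleen and pancreas were followed across sorted cells of the neonatal mouse pancreas. They were chosen by gene symbol (Nkx3-2, Nkx2-5, Barx1, Tcf21, Foxf2, Hlx, Tlx1, Twist1, Twist2 and Prrx1), and all 10 have a row among the 38283 genes of each deposited table. RNA was sequenced from pancreata of C57BL/6 mice at postnatal day 2, and flow sorting on YFP gave a positive (mesenchymal) and a negative (non-mesenchymal) fraction. A Cre recombinase expressed from the Nkx3-2 locus drives the deletions, and every animal, control or mutant, carried this allele (Nkx3.2Cre/+ or Nkx3.2+/Cre in the labels). Animals without Cre were not analysed here.

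The first model deletes Igf2, a growth factor gene expressed from the paternal allele (mutants Igf2+/fl, controls Igf2+/+). Values for its non-mesenchymal cells came from 3 mutant and 4 control libraries. The second model deletes the imprinting control region H19DMD (mutants H19DMDfl/+, controls H19DMD+/+), which the study describes as overexpression of Igf2. Each of its cell fractions was measured in 4 mutant and 3 control libraries. Of 31 samples, 21 in 6 groups had values; the mesenchymal cells of the Igf2 model and 2 H19DMD controls were not analysed here. The labels do not say whether libraries came from separate animals, so p-values measure the spread between these libraries, which may be technical.

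Visceral mesenchyme arises from lateral plate mesoderm around the gut tube, where homeodomain, basic helix-loop-helix and forkhead proteins divide it into regional domains. Nkx3-2 (also called Bapx1) is a homeodomain repressor of the mesenchyme around the stomach, spleen and pancreas. Pancreatic mesenchyme supplies growth signals to the epithelium, and its cells share their origin with the spleen anlage and the stomach wall.

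Levels are FPKM, fragments scaled by transcript length and by mapped fragments of the library, so that genes can be ordered within a library. Tests were made with limma on log2(FPKM + 1) over genes averaging 1 FPKM or more across the libraries compared, and a gene was called at a Benjamini-Hochberg adjusted p under 0.05. Differences are on that log2 scale, which understates changes of low genes. The 2 tables were normalised separately and were never tested against each other. The sort and the H19DMD genotype were checked first. Summed FPKM of 8 mesenchyme markers, which include collagens, Pdgfra and Dcn, was 4523 to 5926 in mesenchymal libraries of the H19DMD model and 149 to 253 in its non-mesenchymal libraries. Endothelium markers (6 genes) were also higher in mesenchymal libraries, at 82.7 to 93.0 FPKM in controls and 72.0 to 121 FPKM in mutants, than in non-mesenchymal ones, at 16.8 to 41.5 and 18.9 to 27.1 FPKM; their part in the differences between fractions was not tested. Smooth muscle and pericyte markers were also higher there, at 476 to 793 FPKM in controls and 146 to 715 FPKM in mutants. Their non-mesenchymal sums were 11.6 to 16.6 and 14.4 to 22.1 FPKM. Mesothelium markers were 113 to 279 FPKM in control mesenchymal and 36.1 to 53.0 FPKM in control non-mesenchymal libraries. In mutants they overlapped, at 36.4 to 100.2 and 54.1 to 75.1 FPKM. The part of both lists was not tested either. Acinar, endocrine, ductal, leukocyte, neural and erythroid lists were lower in mesenchymal libraries without overlap. H19 was 565 to 835 FPKM in H19DMD-mutant mesenchymal cells and 2437 to 2454 FPKM in their controls. Igf2 was 6162 to 7923 FPKM in these mutant cells and 3648 to 4024 FPKM in controls. The limma difference was -1.82 for H19 (adjusted p = 0.0458) and 0.87 for Igf2 (adjusted p = 0.927), so Igf2 was not called although its groups did not overlap, as for 5.39% of genes tested. The Igf2 deletion could not be checked in the same way, because mesenchymal cells of that model were not analysed here; in its non-mesenchymal cells Igf2 was 24.97 to 146.5 FPKM in mutants and 71.5 to 143.9 FPKM in controls, which overlap. Relative depth, read from the smallest steps between low FPKM values, spanned 2.204-fold over the 14 libraries of the H19DMD table and 2.59-fold over the 7 of the Igf2 table.

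Among the members, Prrx1, Tcf21, Twist2 and Barx1 were called higher in mesenchymal than in non-mesenchymal cells, in controls and in mutants of the H19DMD model. Among all genes tested, 12.4% were called higher there in controls and 13.5% in mutants. These 4 members passed the filter on low values only through their mesenchymal level, since their non-mesenchymal means were 0 to 0.583 FPKM, so their differences are given as descriptions and their p-values only from the fit without that filter. The bases just upstream of their transcription starts are shown because these 4 members were called in both; whether they move together was not tested. They are RefSeq sequences (GRCm38.p6), trimmed to end before the first GENCODE M21 start and written 5′ to 3′ on the strand of the gene; all 10 members matched an entry. Prrx1 is at chr1:163313711-163313900 (190 bases, minus strand), Tcf21 at chr10:22820175-22820393 (219 bases, minus strand), Twist2 at chr1:91801211-91801460 (250 bases, plus strand) and Barx1 at chr13:48662786-48662997 (212 bases, plus strand). Capitals mark the homeodomain core TAAT on either strand.
Prrx1: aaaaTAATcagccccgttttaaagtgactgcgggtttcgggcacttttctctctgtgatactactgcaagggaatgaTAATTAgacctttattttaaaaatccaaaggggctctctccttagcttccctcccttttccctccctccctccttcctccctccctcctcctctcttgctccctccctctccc
Tcf21: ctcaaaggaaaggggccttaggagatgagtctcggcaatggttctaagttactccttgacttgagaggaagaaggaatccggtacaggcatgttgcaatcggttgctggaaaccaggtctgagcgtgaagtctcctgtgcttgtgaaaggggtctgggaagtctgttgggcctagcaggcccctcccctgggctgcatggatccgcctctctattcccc
Twist2: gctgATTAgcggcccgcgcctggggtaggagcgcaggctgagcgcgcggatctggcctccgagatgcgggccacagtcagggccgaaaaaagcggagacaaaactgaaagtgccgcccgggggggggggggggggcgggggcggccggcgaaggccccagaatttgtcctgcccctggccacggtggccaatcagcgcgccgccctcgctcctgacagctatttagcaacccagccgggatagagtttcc
Barx1: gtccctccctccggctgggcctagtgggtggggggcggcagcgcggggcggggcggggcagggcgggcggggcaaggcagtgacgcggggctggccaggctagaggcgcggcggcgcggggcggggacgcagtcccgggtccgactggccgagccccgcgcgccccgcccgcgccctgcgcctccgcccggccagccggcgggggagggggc

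The Prrx1 window held 3 matches to TAAT, with a pair of them overlapping, and the Twist2 window held 1. The Tcf21 and Barx1 windows held 0. Of 32851 promoter windows of the same length, 48.9% held at least 1 TAAT at the length of the Prrx1 window and 54.9% at that of the Twist2 window. The E-box CANNTG, the core bound by basic helix-loop-helix proteins such as Tcf21 and the Twist factors, had 0 matches in all 4 windows, where 57.3% to 66.2% of windows of those lengths held it. The NK motif TNAAGTG, a core bound by Nkx proteins, had 1 match, in the Prrx1 window, and 8.04% of windows of that length held it. The forkhead core TAAACA had 0 matches in the 4 windows, against 9.90% to 12.03% of windows. Both strands were searched for each motif, and the motif letters were chosen with these sequences at hand.

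In H19DMD control mesenchymal cells the members spanned a wide range of levels. Prrx1 was the most abundant, above 95.5% of 21249 protein-coding genes. Tcf21 stood above 84.2%, Twist2 above 72.4% and Barx1 above 67.3% of these genes. The ranges of Prrx1, Tcf21 and Twist2 did not overlap from 1 to the next in that order. Below them, Twist2, Barx1, Hlx, Tlx1, Twist1, Nkx3-2 and Foxf2 followed in order of mean level, and each overlapped its neighbour. In mutants, Prrx1 over Tcf21 was the only step between neighbours above 0 without overlap. A mean of at least 1 FPKM was reached by 7 of 10 members in control and 9 of 10 in mutant mesenchymal cells. In the 4 non-mesenchymal groups that count was 1 of 10 in H19DMD controls, 0 of 10 in H19DMD mutants, 1 of 10 in Igf2 controls and 1 of 10 in Igf2 mutants; the member was Hlx each time.

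**Figure D1:**
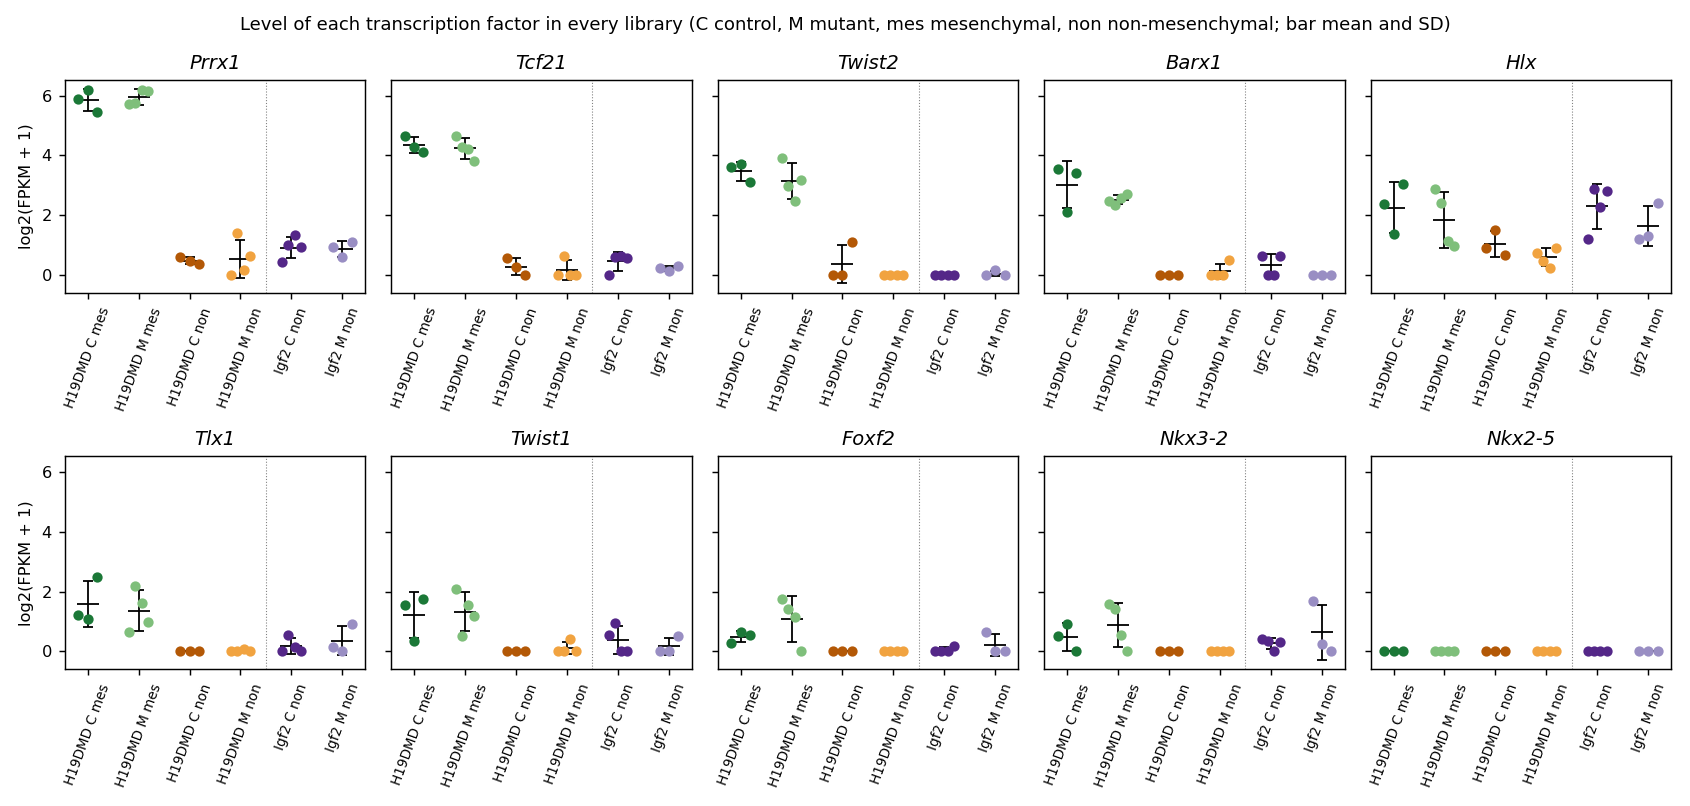
Levels of the 10 transcription factors as log2(FPKM + 1) on the vertical axis in each of the 21 libraries (points) of 6 groups on the horizontal axis, with the mean and SD of each group as a bar; the dotted line separates the tables of the 2 models. Prrx1, Tcf21, Twist2 and Barx1 sit high in the mesenchymal groups and near 0 elsewhere, Hlx is above 0 in every library, and Nkx2-5 is listed at 0 in every library.

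Prrx1, a paired-related homeobox factor of limb, craniofacial and body wall mesenchyme, was 58.2, 71.7 and 42.9 FPKM in control mesenchymal cells and 51.5, 53.0, 72.4 and 69.97 FPKM in H19DMD-mutant mesenchymal cells. In non-mesenchymal cells of that model it was 0.510, 0.372 and 0.286 FPKM in controls and 0, 1.67, 0.120 and 0.543 FPKM in mutants. Every mesenchymal library stood above every non-mesenchymal one, by a ratio of means of 148 in controls and 106 in mutants. The limma difference was 5.37 ± 0.24 (SE) in controls and 5.40 ± 0.32 in mutants.

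Tcf21 (capsulin), a basic helix-loop-helix factor needed for spleen formation and for the mesenchyme of lung and kidney, was 24.1, 18.7 and 16.2 FPKM in control and 24.2, 18.6, 17.6 and 12.9 FPKM in mutant mesenchymal cells. It reached at most 0.572 FPKM in any of the 14 non-mesenchymal libraries and was listed at 0 in 5 of them. The fractions did not overlap, and the ratio of means was 87.3 in controls and 128 in mutants. The limma difference was 4.08 ± 0.26 (SE) in controls and 4.08 ± 0.26 in mutants.

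The Twist factors are basic helix-loop-helix proteins that hold back differentiation of mesenchymal precursors. Twist2 was 11.2, 11.99 and 7.63 FPKM in control and 14.2, 6.89, 4.62 and 8.14 FPKM in mutant mesenchymal cells. It was listed at 0 in 12 of 14 non-mesenchymal libraries, and a single H19DMD control, replicate 3, reached 1.15 FPKM. The fractions did not overlap. The limma difference of Twist2 was 3.11 ± 0.39 (SE) in controls and 3.15 ± 0.32 in mutants. Twist1 was 1.95, 0.276 and 2.34 FPKM in control and 3.20, 0.432, 1.92 and 1.29 FPKM in mutant mesenchymal cells. It was listed at 0 in 10 of 14 non-mesenchymal libraries. Replicate 2 was the lowest Twist1 library in each mesenchymal group. Twist1 did not pass the filter on low values in either fraction comparison.

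Barx1, a homeobox factor of stomach mesenchyme that limits Wnt signalling there, was 10.7, 3.31 and 9.62 FPKM in control and 4.61, 4.02, 4.96 and 5.56 FPKM in mutant mesenchymal cells. It was listed at 0 in 11 of 14 non-mesenchymal libraries, and its highest value there was 0.569 FPKM, in an Igf2 control. Its mesenchymal difference was 3.02 ± 0.44 (SE) in controls and 2.40 ± 0.24 in mutants on the limma scale. Stomach epithelium markers were measured as a check of the dissection. Of these, Gkn1 and Gkn2, which mark stomach surface cells, were listed at 0 in all 6 groups. In mesenchymal cells the summed FPKM of 9 stomach markers was 1.69 to 3.04 in controls, where 8 of the 9 were listed at 0, and 2.04 to 4.44 in mutants, where 6 of the 9 were. In non-mesenchymal cells, where 2 to 4 of the 9 were listed at 0 in each group, the list summed to 33.0 to 73.6 FPKM in H19DMD controls, 42.5 to 85.6 FPKM in H19DMD mutants, 36.3 to 71.7 FPKM in Igf2 controls and 75.9 to 134.7 FPKM in Igf2 mutants. The sort lowers epithelial RNA in mesenchymal cells, so this list cannot show whether stomach mesenchyme was present there. The part of stomach tissue in the Barx1 values was not tested.

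Hlx, a homeobox factor of visceral mesenchyme required for growth of the liver and gut, had values in every library of both fractions. It was 4.19, 1.56 and 7.25 FPKM in control and 6.32, 4.26, 1.18 and 0.978 FPKM in mutant mesenchymal cells. Non-mesenchymal libraries of the same model had 0.880, 1.86 and 0.582 FPKM in controls and 0.671, 0.386, 0.173 and 0.882 FPKM in mutants. The fractions overlapped in controls and did not in mutants. The difference between fractions was 1.23 ± 0.50 (SE) in controls (limma adjusted p = 0.144) and 1.26 ± 0.47 in mutants (limma adjusted p = 0.0834). Neither passed the threshold. Without mutant mesenchymal replicate 4, the lowest mesenchymal library for Hlx, the mutant difference was 1.54 with a limma adjusted p of 0.0476. In mutants the non-mesenchymal mean of Hlx was 0.528 FPKM, so it passed the filter only through its mesenchymal level. The mutant results are therefore descriptions.

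The share of each level that was left in the other fraction set Hlx apart in size. In controls the non-mesenchymal mean was 0.675% of the mesenchymal mean for Prrx1, 1.15% for Tcf21, 3.73% for Twist2 and 25.6% for Hlx. In mutants these shares were 0.945% for Prrx1, 0.780% for Tcf21 and 16.6% for Hlx, and Twist2 was listed at 0. Of the 8 mesenchyme markers, 7 had shares of 0.458% to 1.99% in controls and 0.966% to 2.92% in mutants. The other, Vim, an intermediate filament gene that is not restricted to mesenchyme, had shares of 16.4% in controls and 20.2% in mutants. The difference between the shares was not tested, and in bulk RNA fewer cells of a type and less RNA per cell cannot be told apart.

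Tlx1 (Hox11) and Nkx2-5 are homeobox factors of the spleen anlage. Tlx1 was 1.33, 1.14 and 4.597 FPKM in control and 0.583, 3.61, 2.07 and 0.974 FPKM in mutant mesenchymal cells. All 7 libraries were above all 7 non-mesenchymal libraries of that model, of which 6 were listed at 0 and the other was 0.0685 FPKM. In controls its difference was 1.60 ± 0.46 (SE) with a limma adjusted p of 0.0554, after it too passed the filter only through its mesenchymal level, and in mutants it did not pass the filter. Nkx2-5, best known for its part in heart development, was listed at 0 in all 21 libraries. About 3 fragments of Nkx2-5 would correspond to 0.263 to 0.939 FPKM at the depths estimated for these libraries, so levels under this range may have gone unseen. A list of 5 spleen and lymphoid genes summed to 14.9 to 28.6 FPKM in control and 1.55 to 24.1 FPKM in mutant mesenchymal cells, with the B-cell gene Ms4a1 listed at 0 in both groups. That list summed to 22.4 to 28.1 FPKM in control and 4.46 to 15.5 FPKM in mutant non-mesenchymal cells of this model, where Tlx1 was at or near 0.

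Foxf2, a forkhead factor of gut mesenchyme that responds to Hedgehog signals, was 0.221, 0.555 and 0.453 FPKM in control and 2.40, 1.70, 1.21 and 0 FPKM in mutant mesenchymal cells. It was listed at 0 in 12 of 14 non-mesenchymal libraries. In Foxf2, 3 mutant libraries lay above all controls and mutant replicate 4 lay below them, so the groups overlapped. Foxf2 did not pass the filter in any comparison.

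Nkx3-2, the locus that carries the Cre, was low in the cells it marks. It was 0.433, 0.886 and 0 FPKM in control and 1.99, 1.66, 0.475 and 0 FPKM in mutant mesenchymal cells. These correspond to at most about 14.3 fragments per library, with 1 fragment worth 0.0766 to 0.273 FPKM over the 21 libraries. In non-mesenchymal cells of the H19DMD model it was listed at 0 in all 7 libraries. In non-mesenchymal cells of the Igf2 model it was 2.24, 0.173 and 0 FPKM in mutants and 0.346, 0.267, 0 and 0.247 FPKM in controls. The highest value of the series, 2.24 FPKM or about 18.8 fragments, was thus in Igf2-mutant non-mesenchymal replicate 1, although the tables were scaled separately. The labels do not describe the YFP allele; a reporter switched on by Cre also marks cells whose Cre activity has ended. How reads from the Cre allele were assigned is not given in the sources used here. The genes nearest to Nkx3-2 in their deviations over the 14 libraries of the H19DMD table, by root mean square difference of centred log2 values, were Rab9 (0.239), Sox7 (0.2995), Maml2 (0.311), Fxyd6 (0.317) and Dsn1 (0.329). The deviations of Nkx3-2 itself had a root mean square of 0.544 and the median of 12512 genes lay 0.741 away; at these low levels the ranking is a description only.

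Between fractions, 4 of the 6 members that passed the filter in controls were called, all higher in mesenchymal cells, where 12.4% of all 16732 genes tested were called higher and 22.6% in either direction. In mutants 4 of the 5 that passed were called, all higher, where 13.5% of 16767 genes were called higher and 28.6% in either direction. A member that passes only through its mesenchymal level had to differ, so these counts, which rest on Prrx1, Tcf21, Twist2 and Barx1, are descriptions. Over all 10 members, 7 lay higher in mesenchymal cells without overlap in controls; of the genes that passed the filter, 22.4% did. In mutants 7 of 10 did, against 14.4% of the genes that passed. The members' counts include genes under the filter (Twist1 and Foxf2 in controls, Twist1 and Tlx1 in mutants) and the shares do not. Prrx1, Tcf21, Twist1, Twist2, Barx1 and Tlx1 were in both sets, Foxf2 in controls alone and Hlx in mutants alone.

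With the filter on low values lifted, the limma adjusted p of Prrx1, Tcf21, Twist2 and Barx1 was 0.000163 to 0.00643 in controls and 1.85e-05 to 0.000264 in mutants. The same fit gave Tlx1 an adjusted p of 0.0448 in controls and 0.0206 in mutants, with differences of 1.60 and 1.34. Twist1 had differences of 1.22 in controls (adjusted p = 0.0919) and 1.23 in mutants (adjusted p = 0.0300). Foxf2 had differences of 0.49 (adjusted p = 0.0625) and 1.09 (adjusted p = 0.0634), and Nkx3-2 had 0.48 (adjusted p = 0.257) and 0.89 (adjusted p = 0.106). With the filter lifted, Tlx1 was thus called in both and Twist1 in mutants, while Foxf2 and Nkx3-2 were not called. In controls Tlx1 was also called under 4 other alternatives. These keep the filter, which it passed only through its mesenchymal level, so they add nothing to the call.

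**Figure D2:**
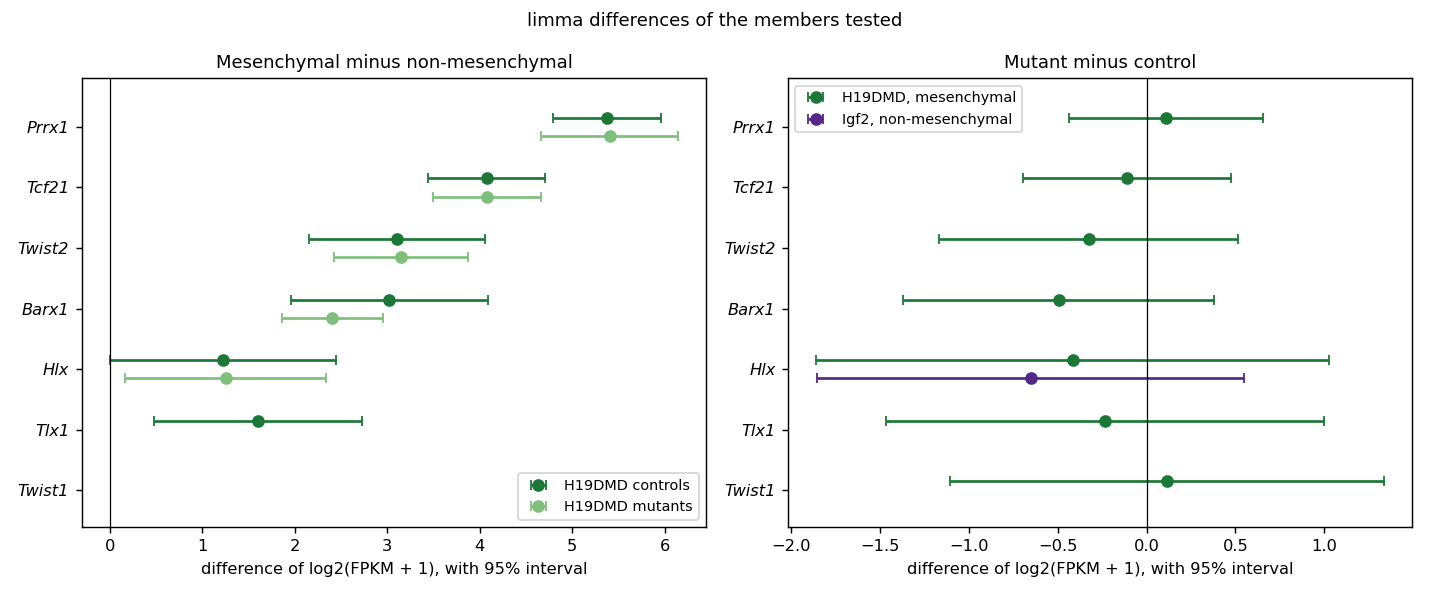
Limma differences of log2(FPKM + 1) with their 95% intervals on the horizontal axis, for the members that passed the filter (rows). The left panel shows mesenchymal minus non-mesenchymal cells in controls and mutants of the H19DMD model. Intervals of Prrx1, Tcf21, Twist2 and Barx1 lie well above 0 there. These members passed the filter only through their mesenchymal level, so their intervals are descriptions. The right panel shows mutant minus control, where every interval spans 0.

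The comparison of H19DMD-mutant with control mesenchymal cells asks whether these factors change in the model described as overexpression of Igf2. None of the 7 members tested was called, and limma called 0.0694% of 15856 genes in this comparison. At an unadjusted p under 0.05 the count was also 0 of 7, against 4.76% of all genes. The groups overlapped for all 10 members, Nkx2-5 at 0 throughout; of genes that passed the filter, 5.39% did not overlap, a share to be set beside the 7 members tested only. Prrx1 differed by 0.11, with a 95% interval of -0.44 to 0.66, and Tcf21 by -0.11, with an interval of -0.69 to 0.48. Barx1 had the lowest estimate, -0.50, with an interval of -1.37 to 0.38, from means of 4.79 ± 0.645 (SD, n = 4) FPKM in mutants and 7.88 ± 4.003 (SD, n = 3) FPKM in controls. Control replicate 2, at 3.31 FPKM, lay below all 4 mutants for Barx1, and the other 2 controls lay above them. Without control replicate 2 the Barx1 difference was -0.95, and without control replicate 1 it was -0.23.

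The remaining estimates were less precise. Hlx differed by -0.41 (interval -1.86 to 1.03; -0.87 without control replicate 2 and -0.022 without control replicate 3), Twist2 by -0.33 (-1.17 to 0.52), Tlx1 by -0.23 (-1.47 to 1.00) and Twist1 by 0.12 (-1.11 to 1.34). The limma adjusted p of the 7 members was 0.927 to 0.988. Leaving out 1 library turned the sign of some of these: Tlx1 was 0.21 without control replicate 3, Twist1 was -0.32 without control replicate 2 and -0.13 without mutant replicate 1, Prrx1 was -0.082 without control replicate 3, and Tcf21 was 0.041 without control replicate 1 and 0.037 without mutant replicate 4. Twist2 was -0.59 without mutant replicate 1 and -0.11 without mutant replicate 3. Intervals of Hlx, Tlx1 and Twist1 reach beyond a log2 unit to both sides. With the filter lifted, Foxf2 differed by 0.60 (interval -0.40 to 1.60) and Nkx3-2 by 0.41 (interval -0.63 to 1.45), each with a limma adjusted p of 0.898. The mesothelium marker sum (5 genes) was 113 to 279 FPKM in controls and 36.4 to 100.2 FPKM in mutants, and the smooth muscle and pericyte sum (6 genes) was 476 to 793 FPKM and 146 to 715 FPKM. The ductal sum (6 genes) was 34.9 to 80.8 FPKM in controls and 14.6 to 33.8 FPKM in mutants. The part of these lists in the differences between mutants and controls was not tested.

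In non-mesenchymal cells of the H19DMD model no member passed the filter, and limma called 0.0677% of 16239 genes there. Groups did not overlap for 5.68% of genes that passed the filter, which cannot be set beside the members, as none passed and Nkx3-2, Nkx2-5 and Foxf2 were listed at 0 in all 7 libraries. With the filter lifted, Hlx differed by -0.44 (interval -1.10 to 0.22, limma adjusted p = 0.882), from means of 0.528 FPKM in mutants and 1.11 FPKM in controls. The mesothelium sum there was 54.1 to 75.1 FPKM in mutants and 36.1 to 53.0 FPKM in controls, without overlap. The spleen and lymphoid sum was lower in mutants without overlap, at the values given with Tlx1, and the part of both lists in these values was not tested. Prrx1 differed by 0.08 (interval -0.72 to 0.88). The test of whether the H19DMD difference itself differed between fractions called 0 of 6 members, and 0.0117% of 17105 genes; at an unadjusted p under 0.05 it was 0 of 6, against 6.35% of all genes. The interaction estimates of these 6 ran from -0.62 for Barx1 (interval -1.60 to 0.37, limma adjusted p = 0.857) to 0.04 for Twist2 (interval -1.04 to 1.12). Hlx, at 0.03, had the widest interval, from -1.53 to 1.58.

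In non-mesenchymal cells after Igf2 deletion, Hlx was the only member to pass the filter. It was 1.32, 1.47 and 4.31 FPKM in mutants and 1.32, 6.34, 3.88 and 5.97 FPKM in controls. The groups overlapped, and the limma difference was -0.65 ± 0.51 (SE), with an interval of -1.85 to 0.55 and an adjusted p of 0.919 (unadjusted p = 0.241); limma called 0.0631% of 17441 genes in this comparison. Groups did not overlap for 6.02% of genes that passed the filter; Hlx is the only member that share can be set beside. Prrx1 was 0.897, 0.504 and 1.14 FPKM in mutants and 0.352, 0.994, 1.501 and 0.901 FPKM in controls. Tcf21 was 0.179, 0.107 and 0.244 FPKM in mutants and 0, 0.518, 0.564 and 0.497 FPKM in controls. Control replicate 1 lay below the 3 mutants for Tcf21 and the other 3 controls lay above them. The mesenchyme markers other than Vim summed to 52.1 to 129 FPKM in these mutants and 50.6 to 134 FPKM in controls, and endothelium markers to 29.4 to 107.7 and 12.8 to 110.7 FPKM. Of the other lists, 3 did not overlap between the groups. Acinar markers (8 genes) summed to 86053 to 98217 FPKM in mutants and 29269 to 42347 FPKM in controls, and stomach markers were also higher in mutants. Ductal markers summed to 779.9 to 947.7 FPKM in mutants and 950.4 to 1300.1 FPKM in controls. Over these 7 libraries Hlx had r = 0.715 with the mesenchyme list (exact permutation p = 0.0879, adjusted 0.402). With the endothelium list r was 0.699 (exact permutation p = 0.104, adjusted 0.417). It was -0.189 with the leukocyte list and -0.151 with the neural list. None passed adjustment over the 32 relations described below. The part of any list in the Hlx difference between mutants and controls, or in the other members' values, was not tested.

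Within the 7 mesenchymal libraries, Hlx ran from 0.978 to 7.25 FPKM. Its levels were set beside those of 6 smooth muscle and pericyte genes, which include Acta2 and Myh11, contractile genes of smooth muscle. Control replicate 3 and mutant replicate 1, the highest for Hlx, had the highest mean log2 levels of the list, 6.30 and 6.11. Mutant replicate 4, the lowest for Hlx, had the lowest, 4.21. Over 7 libraries Pearson's r was 0.884, with an exact permutation p of 0.00417. Spearman's rho reached 0.964, with an exact permutation p of 0.00278. Over the 32 relations computed between members and marker lists, the Benjamini-Hochberg adjusted values were 0.133 and 0.0889, which do not pass 0.05. Without the 2 libraries farthest from the median, r was 0.853 over 5. Whether the relation differs between lists was not tested. With the endothelium list r was 0.727 (exact permutation p = 0.0510, adjusted 0.376) and rho 0.714 (exact permutation p = 0.0881, adjusted 0.640). With the mesothelium list r was 0.624 (exact permutation p = 0.140, adjusted 0.449) and rho 0.607 (exact permutation p = 0.167, adjusted 0.640). With the mesenchyme list r was 0.247 (exact permutation p = 0.561, adjusted 0.784) and rho 0.429 (exact permutation p = 0.354, adjusted 0.656). Against the smooth muscle and pericyte list, Prrx1 had r = -0.768 (exact permutation p = 0.0367, adjusted 0.376) and rho = -0.857 (exact permutation p = 0.0238, adjusted 0.381), of the opposite sign to Hlx. Tcf21 had r = 0.751 with the endothelium list (exact permutation p = 0.0490, adjusted 0.376). Its r was 0.736 with the mesothelium list (exact permutation p = 0.0587, adjusted 0.376). With the smooth muscle and pericyte list it was 0.681 (exact permutation p = 0.0871, adjusted 0.402). Without the 2 farthest libraries these became -0.098, 0.025 and 0.969. Neither genotype group has the 6 libraries needed for a correlation of its own, and the points share their table, depth differences and genotypes.

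**Figure D3:**
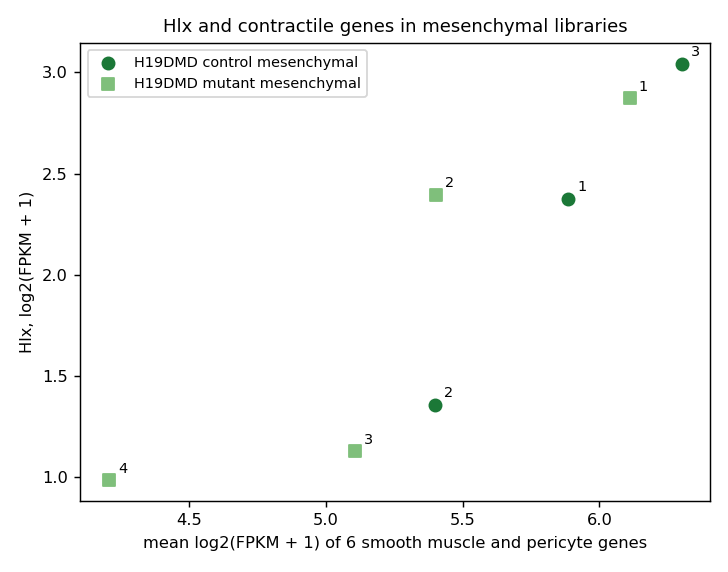
Hlx as log2(FPKM + 1) on the vertical axis against the mean log2(FPKM + 1) of 6 smooth muscle and pericyte genes on the horizontal axis, in 3 control and 4 mutant mesenchymal libraries of the H19DMD model (numbers are replicates). Hlx is highest in control replicate 3 and mutant replicate 1 and lowest in mutant replicates 3 and 4, and the rank correlation with the contractile list has a rho of 0.964 that does not pass adjustment over 32 relations.

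The members were set beside 40 other transcription factors linked to visceral mesenchyme. In controls 20 of 29 tested were called higher and 1 lower in mesenchymal cells, where 12.4% of all genes tested were called higher, and their median difference was 2.48 against 0.08 over all genes tested. In mutants 22 of 28 were called higher and 2 lower, where 13.5% of all genes were called higher, with a median of 2.54 against -0.03. As with the members, factors such as Nkx2-3 and Prrx2 passed the filter only through their mesenchymal level, so these counts and medians are descriptions. Zeb2, Zeb1, Meis1 and Ebf1 were among the most abundant of them in control mesenchymal cells, with means of 179, 164, 109.7 and 88.0 FPKM, above the 57.6 FPKM of Prrx1. Isl1, also a factor of islet and neuronal cells, was called lower in mesenchymal cells, by limma differences of -1.43 (adjusted p = 0.0416) in controls and -2.07 (adjusted p = 0.000446) in mutants. Gata4, shared with gut and acinar epithelium, was lower without overlap in both, by limma differences of -1.84 (adjusted p = 0.0598, not called) in controls and -1.95 (adjusted p = 0.00298, called) in mutants. Isl1 and Gata4 are named after their values were seen, as the members of the list called lower.

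Foxf1, the close relative of Foxf2, was 6.48 ± 2.06 (SD, n = 3) FPKM in control mesenchymal cells, where Foxf2 was 0.409 ± 0.171 FPKM. Its mean in non-mesenchymal cells of that model was 0.332 FPKM in controls and 0.336 FPKM in mutants. In non-mesenchymal cells of the Igf2 model Foxf1 was 0.973 to 1.59 FPKM in mutants and 0.252 to 0.754 FPKM in controls, without overlap (as for 6.02% of all genes tested), and its mean there did not pass the filter. Nkx2-3, a relative of Nkx2-5 in gut and spleen mesenchyme, was 4.86 ± 0.972 (SD, n = 3) FPKM in control mesenchymal cells, where Nkx2-5 was listed at 0. In non-mesenchymal cells its mean was 0.0416 FPKM in controls and 0.126 FPKM in mutants, so Nkx2-3, like Foxf1, passed the filter through its mesenchymal level, and no test is given for either. Between mutant and control, limma called 0 of 30 list members in H19DMD mesenchymal cells, 0 of 16 in their non-mesenchymal cells and 0 of 17 after Igf2 deletion, with 1, 3 and 1 at an unadjusted p under 0.05. That p was met by 4.76%, 5.35% and 5.28% of all genes tested in these comparisons.

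**Figure D4:**
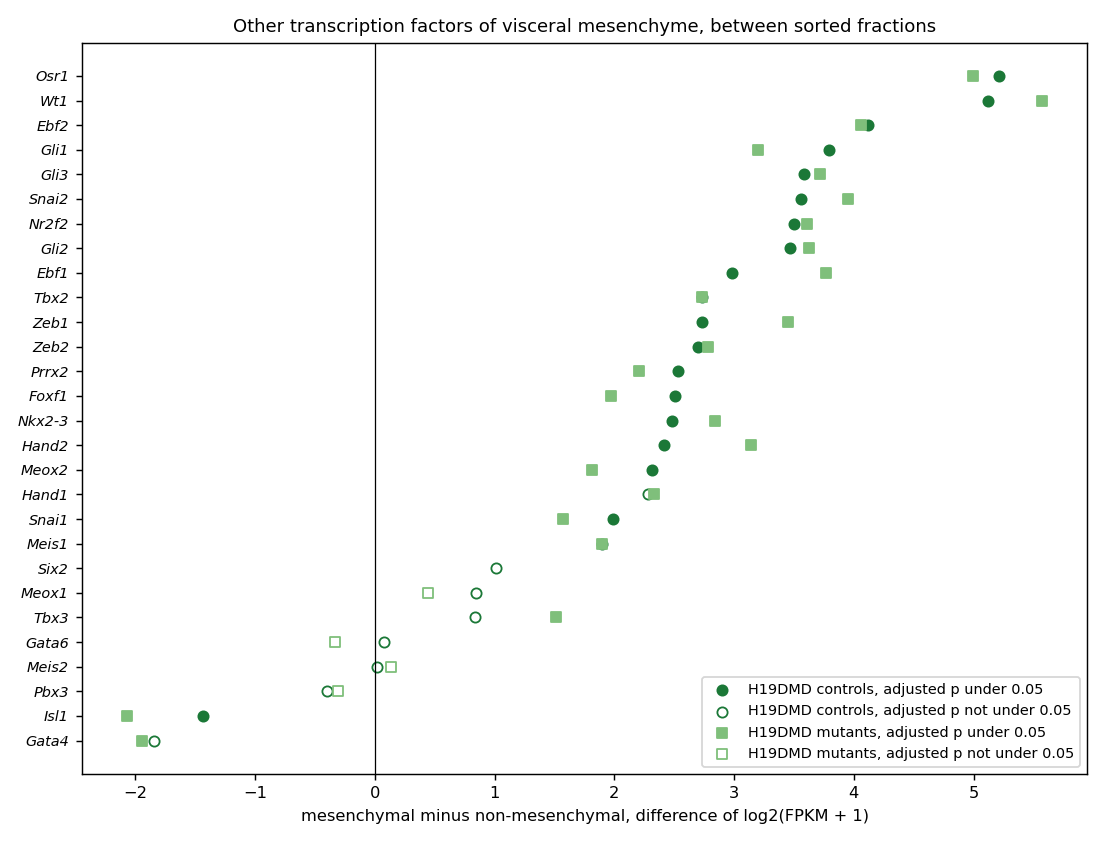
Difference of log2(FPKM + 1) between mesenchymal and non-mesenchymal cells (horizontal axis) for listed transcription factors that passed the filter in H19DMD controls (rows, circles), with the same genes in mutants (squares); filled symbols have a limma adjusted p under 0.05. Most symbols lie to the right of 0, with Isl1, Gata4 and Pbx3 to the left in both and Gata6 to the left in mutants.

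Genes annotated over the members limit some values, because the use of strand in counting is not stated. Prrx1 (chr1:163245119-163313710, minus strand, protein-coding) overlaps the antisense gene Gm20471, listed at 4.88 to 13.1 FPKM in control mesenchymal cells. It also overlaps Gm26523 on its own strand, at 7.62 to 8.66 FPKM there, and Gm37644. Tlx1 (chr19:45150680-45156943, plus strand) overlaps the antisense gene Tlx1os, listed at 0 in every library. Tcf21 overlaps the antisense gene Gm10824, Twist2 the antisense gene Gm29100 and, on its own strand, Gm29101, and Foxf2 the miRNA gene Gm27516 on the opposite strand; values of these were not used here. Nkx3-2 lies at chr5:41761483-41764501 (minus strand), Tcf21 at chr10:22817281-22820174 (minus strand), Barx1 at chr13:48662998-48666507 (plus strand) and Hlx at chr1:184727140-184732619 (minus strand), all on GRCm38. Without strand, reads from these members and from their antisense partners cannot be told apart where they overlap.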

How the data were processed

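Gene-level FPKM for each library was computed and deposited by the authors, and the unit is given per the file headers. TopHat2 2.0.8, Cufflinks 2.2.1 and the build GRCm38 are named per the submitters' processing notes; annotation, strand use and scaling between libraries are not given in the sources used here. Per the labels' protocols, RNA was amplified before single-end sequencing, and low transcripts are then estimated from few molecules. Samples were grouped by their labels. Of 38283 identifiers, 36425 are in GENCODE M21.

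Differences were fitted with limma 3.58.1 (R 4.3.3) on log2(FPKM + 1), with a variance trend, over all genes averaging 1 FPKM or more in the groups compared. P-values are two-sided and Benjamini-Hochberg adjusted at 0.05 over all genes tested; the script was tested on simulated data. FPKM keeps no absolute depth, so no counting intervals are given, and fragment numbers are estimates from steps between low values. An exact 0 is given as listed at 0.

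The members and lists were chosen with earlier results of these data known. All 10 members were named, with the 5 most abundant of 40 other factors (1 of them is not reported here), Foxf1, Nkx2-3, and the 5 genes nearest to Nkx3-2. Alternatives were a pseudocount of 0.1, no filter, median-ratio scaling, protein-coding genes only, no variance trend, all groups in 1 fit, a replicate block and leaving out each library. The other marker lists (acinar, endocrine, ductal, endothelial, leukocyte, neural and erythroid) served to check the sort, and the endothelial, leukocyte and neural lists also entered the 32 correlations; acinar markers, for example, summed to 564 to 1776 FPKM in mesenchymal and 38843 to 103931 FPKM in H19DMD non-mesenchymal libraries.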

Additional observations from a re-analysis of the deposited data

Results flagged for a closer look

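Single libraries stood apart for members near 0 in 6 of the 23 groups of 4 libraries with unequal values, by the gap of the extreme library to its neighbour relative to the range of the group. In 5 of the 6 the other 3 libraries were listed at 0, where any library above 0 meets the rule, so the chance rate of about 1 in 20 groups does not apply to them. In H19DMD-mutant non-mesenchymal cells, Barx1 was 0.404 FPKM in replicate 4, Tcf21 was 0.572 FPKM in replicate 2, Tlx1 was 0.0685 FPKM in replicate 3 and Twist1 was 0.336 FPKM in replicate 3, each with the other 3 libraries listed at 0. In Igf2-control non-mesenchymal cells, Foxf2 was 0.140 FPKM in replicate 4 with the other 3 listed at 0, and Tcf21 was listed at 0 in replicate 1 with the other 3 at 0.497 to 0.564 FPKM.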

How the results depend on the processing

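The number of members called stayed at 4 to 5 in controls and 4 to 6 in mutants between fractions under the alternatives run, and at 0 in the 3 mutant comparisons and the interaction. Calls between fractions of Prrx1, Tcf21, Twist2 and Barx1, of Tlx1 in controls and of Hlx in mutants are no sign of stability where the filter is kept. These members pass the filter only through their mesenchymal level. Tlx1 in controls was called with no filter (1.60, limma adjusted p = 0.0448). It was also called with a pseudocount of 0.1 (4.34), protein-coding genes only, no variance trend and all groups in 1 fit (1.60 in these last). Those fits keep the filter, so these calls are descriptions. Its adjusted p over all alternatives was 0.0148 to 0.123. Hlx in mutants passed with protein-coding genes only (limma adjusted p = 0.0403) and without mutant mesenchymal replicate 4, both in fits that keep the filter. Leaving out single libraries turned the sign of uncalled differences between mutant and control mesenchymal cells, with ranges of -0.247 to 0.041 for Tcf21, -0.51 to 0.21 for Tlx1, -0.32 to 0.39 for Twist1 and -0.082 to 0.28 for Prrx1. Without turning sign, they ran from -0.95 to -0.23 for Barx1, -0.87 to -0.022 for Hlx and -0.59 to -0.11 for Twist2, and in the Igf2 model from -1.04 to -0.44 for Hlx. In the interaction the ranges were -0.14 to 0.17 for Tcf21, -0.42 to 0.42 for Hlx, -0.33 to 0.26 for Twist2 and -0.16 to 0.32 for Prrx1, and with a pseudocount of 0.1 the estimates were 0.57 for Tcf21, 0.37 for Hlx, 0.85 for Twist2, 0.39 for Prrx1, -0.57 for Tlx1 and -1.13 for Barx1, with none called; the cause was not tested.

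Whether same-numbered libraries pair was not settled. No set of groups had every correlation of deviations above 0.1, but such a cut-off cannot show that pairing is absent. In mutants each library of 1 fraction correlated best with its own number, at 0.0201 to 0.147, a hint from the data only. With the replicate block the counts of members called were unchanged, and Tcf21 between mutant and control mesenchymal cells, in a fit that drops mutant replicate 4, was 0.037. The number of member and group pairs with a mean of at least 1 FPKM was 19 of 60, and 17 to 21 when a library was left out.

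All-gene counts moved more: from 3785 to between 2660 and 4448 in the control fractions, and from 11 to between 0 and 27 (mesenchymal H19DMD), 1 and 34 (non-mesenchymal H19DMD) and 0 and 37 (Igf2), and from 2 to between 0 and 9 for the interaction. With protein-coding genes only these last 4 counts were 0, 1, 0 and 0; with median-ratio scaling, the median difference of all genes in the control fractions went from 0.08 to -0.04 and that of Prrx1 from 5.37 to 5.25. For the Igf2 table, the fit with all groups was not run, since its values come from 2 groups only. Low members rest on few fragments. Between mutant and control mesenchymal cells, differences of a log2 unit or more in Hlx, Tlx1 or Twist1 may also have been missed at this spread. Igf2, with a difference of 0.87, was itself not called there.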
